A study of Mus musculus with 12 samples.

Results

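The controls of the *Stella*-knockout line (KO-con) and of the *Stella*-overexpressing line (Over-con) are cultures that the study calls mouse female germline stem cells (FGSCs). *Stella* (*Dppa3*) was not altered in either, and this account sets these control lines side by side across all transcripts. They make up 6 of the 12 RNA-seq libraries of the series, 3 for each control line, chosen by their labels. The study also sequenced the engineered lines, 3 libraries of a *Stella* knockout made with CRISPR/Cas9 (KO) and 3 of a lentiviral *Stella* overexpression (Over), to learn what *Stella* does in FGSCs. Those 6 libraries entered no test between the control lines and served here to ask whether a difference between the controls recurred.

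All groups came from C57BL/6 mice, at more than 20 passages, and no age was given. The cells had been purified from ovarian tissue with beads carrying an antibody against MVH, the product of *Ddx4*, and grew on mitotically inactivated STO feeder fibroblasts with leukemia inhibitory factor, EGF, basic FGF and GDNF. Over-con carried the empty lentiviral vector, and the stable lines of the overexpression were obtained with puromycin. The sources used here do not say how KO-con was made, whether it carried a vector or an unrelated guide RNA, or whether it was a clone. The KO line was 1 clone that the study picked at random, and the promoter that drove the *Stella* transgene is not given. The paper speaks of 3 repeats without calling them separate cultures, so the p-values below measure the spread between these libraries, which may be technical.

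FGSCs are described as cells of the ovary that can renew themselves in culture and form oocytes, and germ cells at this stage are known for *Ddx4*, *Dazl*, *Pou5f1* and *Prdm1*. *Stella* protects DNA methylation in the early embryo and is found in primordial germ cells and oocytes. A control line is usually carried beside each engineered line.

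The authors deposited the reads counted on 41388 RefSeq transcripts, with symbols found for 99.5% of them, and 22168 were at 0 in all 6 control libraries. KO-con libraries held 8426772 to 11352217 counts and Over-con libraries 5611846 to 10314015, the lowest being Over-con replicate 2. At these depths 3 counts, taken as the smallest amount shown, came to 0.269 to 0.528 CPM (counts scaled to library size). This floor covers counting error alone. *Stella* itself, with the single transcript NM_139218, had 0 counts in each KO-con, Over-con and KO library and 32.1, 28.4 and 30.5 CPM in Over. In both control lines *Stella* was thus under the floor. The paper reported *Stella* in its FGSCs by RT-PCR and by staining of the protein, which are other measures than these counts.

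The labelled cell type was barely visible in its markers. Of 7 germ cell markers, *Ddx4* and *Stella* were at 0 in all 6 control libraries, *Dazl*, *Pou5f1* and *Nanos3* had at most 1 count in any of them, and only *Prdm1* and *Dnd1* exceeded 1 CPM in 1 or more. *Ddx4*, *Dazl*, *Pou5f1* and *Nanos3* each have 2 listed transcripts, and so does *Gapdh*, a gene of every cell, which had at most 3 counts per transcript in any control library. Zeros of genes with several listed transcripts do not show absence in this table, where 95.7% of the control counts fell on genes with 1 listed transcript. The summed germ cell markers came to 3.49 to 5.07 CPM in KO-con and 1.41 to 2.77 in Over-con. Genes of other cell types were plain in both lines. Mast cell markers summed to 367 to 426 CPM in KO-con and 752 to 862 in Over-con, nearly all of it *Cpa3*, with *Fcer1a* and *Ms4a2* at 0. Fibroblast markers summed to 986 to 1167 and 1388 to 1574 CPM, with *Lum* at 0. Macrophage markers, nearly all *Cd68*, summed to 28.3 to 35.2 and 29.05 to 33.4 CPM, with *Adgre1*, *C1qa* and *C1qb* at 0. Lymphocyte, granulocyte, granulosa and theca, and endothelial markers stayed under 2.4 CPM in sum in every control library.

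The control lines were compared transcript by transcript in a quasi-likelihood fit (edgeR), and p-values were adjusted by Benjamini and Hochberg over the 9321 transcripts left by the filter on low counts. The thresholds were those of the study. A transcript counted as differentially expressed (DEG) where its adjusted p was under 0.05 and its log2 fold change (log2FC, KO-con minus Over-con) lay beyond 1 in either direction. CPM were normalized once over all 12 libraries by the TMM method. For 1 gene alone, an exact two-sided permutation of 3 libraries against 3 has 0.10 as its smallest p. A difference between bulk samples can come from fewer cells of a type or from less RNA per cell, and these cannot be told apart here.

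The control lines differed in 201 transcripts of 197 genes, or 2.16% of those tested. 78 (0.837%) were higher and 123 (1.32%) lower in KO-con. The higher DEGs were led by *Rgs12*, *Pim2*, *Akr1c13* and *Osm*, and the lower ones by *Ago4*, *Ccn3*, *Hey2* and *Pde3b*. At an adjusted p under 0.05 alone, 753 transcripts (8.08%) were higher and 763 (8.19%) lower, so most of the called differences were smaller than 2-fold. The median absolute log2FC over all transcripts was 0.18, and only 33 DEGs exceeded 2 on the log2 scale, 13 higher and 20 lower. The libraries of both lines were fully separated in 198 of the 201 DEGs, and in 32.1% of all transcripts tested. The DEGs were mostly transcripts of low level. In 105 of them the mean of the higher line was under 10 CPM, and in 22 it was 100 CPM or more, 13 of these higher and 9 lower in KO-con. Of transcripts with a mean of 1 to 10 CPM over the control libraries 3.71% were DEGs, against 0.85% of those at 100 CPM or more. By adjusted p alone the order was the reverse, with 221 of 3344 called in the former and 614 of 2236 in the latter. *Cited2* (log2FC 1.01), *Nr3c1* (-1.01) and *Naaladl2* (-1.004) lay just inside the fold threshold, and *Cpa3* (-0.9997), *Col3a1* (-0.99) and *Iffo1* (0.98) just outside it. Over-con replicate 3 stood apart from the other Over-con libraries. Its counts differed from theirs by a chi-square of 9.52 and 10.7 per degree of freedom, against 4.87 between the other two, and on the second principal component of all 12 libraries it lay at 0.167 beside -8.002 and -10.5. Without it there were 124 higher and 139 lower DEGs. Named DEGs close to the fold threshold lost the call by fold change alone. *Lyl1*, *Slc38a2* and the *Pfkp* transcript NM_019703 fell below 1 with library totals in place of TMM, at 0.988, 0.998 and 0.969. With 1 library left out, *Lyl1* fell to 0.95 to 0.991 (KO-con replicate 1, Over-con replicate 1 or 2), *Pfkp* to 0.944 to 0.984 (KO-con replicate 2 or 3, Over-con replicate 3), *Lfng* to 0.9977 to 0.9987 (Over-con replicate 1 or 2), and *Slc38a2* to 0.957 to 0.987 (KO-con replicate 3, Over-con replicate 1).

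**Figure D1:**
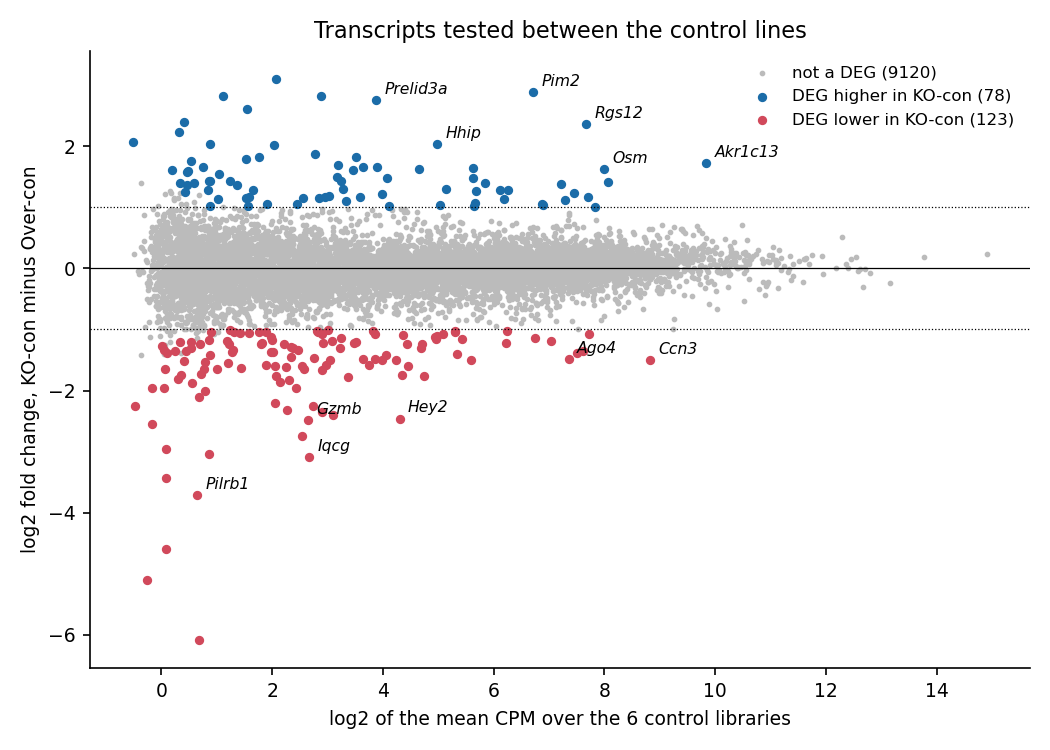
Log2FC of KO-con minus Over-con (vertical axis) against the log2 of the mean CPM over the 6 control libraries (horizontal axis) for the 9321 transcripts tested, with DEGs in color and dotted lines at a log2FC of 1 in either direction. The 78 higher and 123 lower DEGs crowd at the low end of the scale, while *Akr1c13*, *Rgs12*, *Osm*, *Pim2* and *Ccn3* stand out among transcripts of higher level.

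*Rgs12*, a regulator of G protein signaling that speeds up GTP hydrolysis by G protein alpha subunits, had the lowest adjusted p. Its transcript NM_173402 (one of 2 listed; the gene lies on chromosome 5 of mm9 from 35292094 to 35382293, plus strand) was at 336, 328 and 362 CPM in KO-con and 70.1, 67.8 and 63.7 CPM in Over-con. Every KO-con library was above every Over-con library, at 342 ± 17.9 against 67.2 ± 3.27 CPM (SD, n = 3). The log2FC was 2.36 (standard error 0.08, edgeR adjusted p = 3.62e-14). A gap in the same direction stood between the engineered lines, at 839.6, 873 and 791 CPM in KO and 128, 131 and 127 CPM in Over, and the KO level was above all 3 KO-con libraries. RefSeq's GRCm38.p6 promoter table gives 2 starts for *Rgs12* and does not tie them to transcripts, so it is not known which of them the measured transcript uses. The 250 bases before each are shown since this gene led the list (chr5:34949198-34949447, plus strand for the upstream start and chr5:34998828-34999077, plus strand for the downstream one, 5′ to 3′), with AGGAAGT (ETS) and TGAGTCA (AP-1), on either strand, in capitals:
Rgs12, upstream start: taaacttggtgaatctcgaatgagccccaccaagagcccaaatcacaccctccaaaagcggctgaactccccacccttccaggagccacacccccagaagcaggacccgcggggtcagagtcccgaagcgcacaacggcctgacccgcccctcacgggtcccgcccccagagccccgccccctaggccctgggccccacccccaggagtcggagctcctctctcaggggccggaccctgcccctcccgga
Rgs12, downstream start: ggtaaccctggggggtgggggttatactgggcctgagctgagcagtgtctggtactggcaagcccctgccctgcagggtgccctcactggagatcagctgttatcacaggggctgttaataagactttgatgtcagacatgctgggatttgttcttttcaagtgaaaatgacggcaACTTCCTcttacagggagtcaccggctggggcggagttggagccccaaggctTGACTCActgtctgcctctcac
The stretch before the downstream start has an ETS match that begins 74 bases before it and an AP-1 match 22 bases before it. The stretch before the upstream start has neither.

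*Pim2*, an X-linked gene for a serine/threonine kinase that favors cell survival (NM_138606; chromosome X of mm9 from 7455388 to 7460558, plus strand), was at 207, 156 and 193 CPM in KO-con against 22.3, 26.2 and 27.1 in Over-con. The lines were well apart, with a log2FC of 2.89 (standard error 0.11, adjusted p = 2.86e-13). *Osm*, which encodes oncostatin M, a cytokine of the interleukin-6 family (NM_001013365; chromosome 11 of mm9 from 4136423 to 4141029, plus strand), was at 398, 365 and 386 CPM against 124, 108 and 141 (log2FC 1.63, adjusted p = 5.91e-11). For both genes KO-con stood apart from all other groups. *Pim2* was at 39.97 to 56.1 CPM in KO and 33.9 to 37.3 CPM in Over, and *Osm* at 127 to 154 and 111 to 125 CPM.

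Both genes are known targets of STAT5, a transcription factor that cytokine receptors activate through JAK kinases, and so are *Pim1*, *Cish*, *Socs1* and *Socs2*. *Pim1*, a kinase related to *Pim2* (NM_008842, one of 2 listed; chromosome 17 of mm9 from 29627757 to 29632390, plus strand), was at 259, 229 and 249.96 CPM in KO-con and 99.9, 90.5 and 123 CPM in Over-con, a log2FC of 1.24 (adjusted p = 8.42e-09). *Cish*, a feedback inhibitor of cytokine receptors named after its values were seen, was at 97.9, 99.9 and 102 CPM against 48.99, 40.8 and 46.8 (log2FC 1.13, adjusted p = 1.14e-08). The suppressors of cytokine signaling were lower in level. *Socs2* had 3 of its transcripts called, the most abundant at 18.1, 12.7 and 11.1 CPM in KO-con and 3.48, 2.82 and 8.44 in Over-con (log2FC 1.44, adjusted p = 0.000698), and *Socs1* was at 5.59, 3.31 and 3.15 against 2.15, 1.23 and 2.33 CPM (log2FC 1.02, adjusted p = 0.0297). In a list of STAT5 and JAK-STAT feedback targets, 22 transcripts of 18 genes were tested. Of these transcripts 9 were DEGs higher in KO-con, beside 0.837% of all transcripts tested, and 0 were lower at an adjusted p under 0.05. The 9 came from the genes above alone, 2 of them from *Pim1* and 3 from *Socs2*, and transcripts of 1 gene are not independent. The median log2FC over the list was 0.20. That list was drawn up after these values were seen, so its count is a description. In KO against Over 4 of its 23 transcripts tested were higher and 4 lower at that threshold. *Pim2*, *Pim1* and *Cish* were higher there too, by less, with log2FC values of 0.43, 0.31 and 0.47 (adjusted p = 0.0292, 0.0048 and 0.00164).

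**Figure D2:**
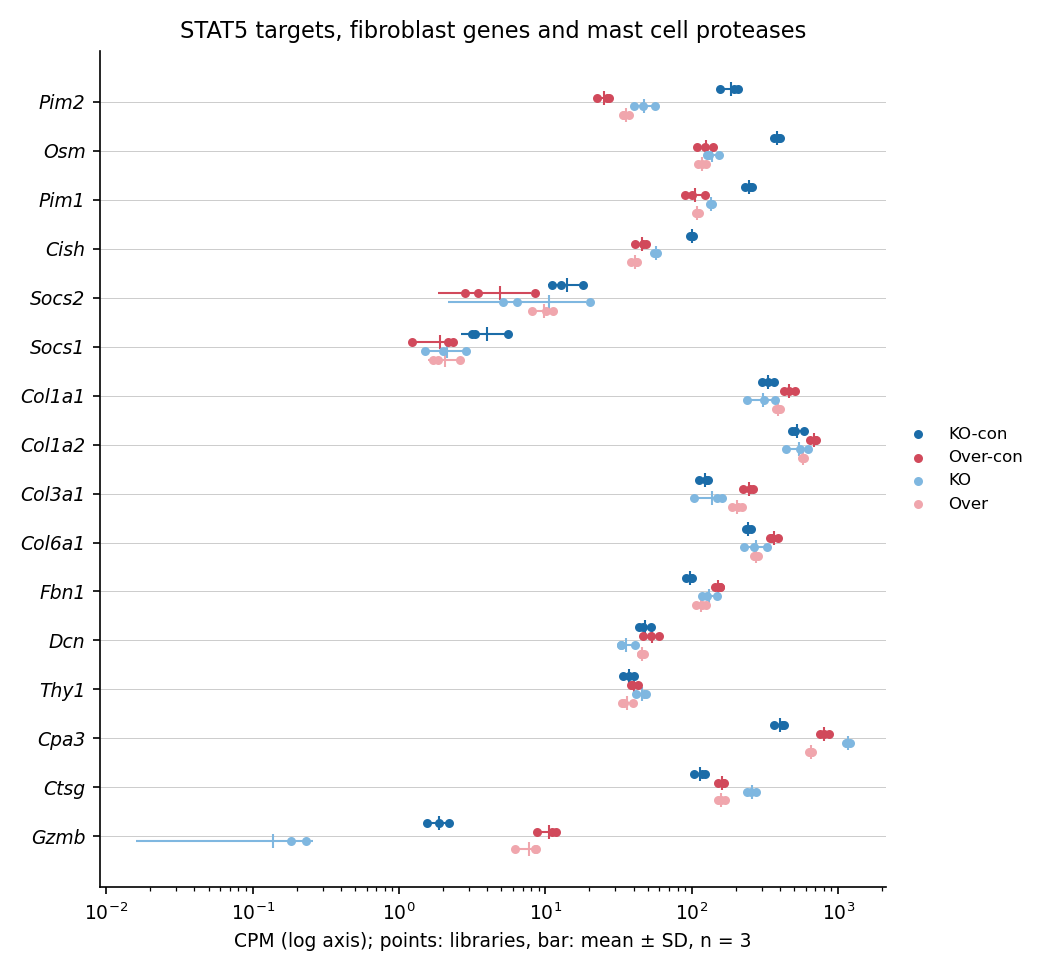
CPM on a log axis for 6 STAT5 target genes, 7 fibroblast genes and 3 mast cell proteases in each library of KO-con, Over-con, KO and Over, with points for libraries and bars for the mean ± SD (n = 3). KO-con stands above the other groups for *Pim2*, *Osm*, *Pim1* and *Cish*, Over-con stands above KO-con for the collagens and for *Cpa3*, and 1 KO library at 0 for *Gzmb* is not drawn.

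*Akr1c13*, an aldo-keto reductase of a family that acts on steroids, prostaglandins and other carbonyl compounds, was the most abundant of the leading DEGs (NM_013778; chromosome 13 of mm9 from 4190430 to 4204842, plus strand). It was at 1484, 1328 and 1397 CPM in KO-con and 423, 439.7 and 422 CPM in Over-con, with no overlap, a log2FC of 1.72 (standard error 0.07, adjusted p = 9.46e-13). Its neighbor *Akr1c12*, named after its values were seen, was at 93.5, 95.2 and 106 CPM against 42.02, 41.4 and 38.6 (log2FC 1.28, adjusted p = 2.43e-09). In the engineered lines they parted. *Akr1c13* was higher in KO, at 915, 936 and 1041 CPM against 687, 685 and 695 in Over (log2FC 0.48, adjusted p = 0.000258). *Akr1c12* was lower in KO, at 34.6, 33.7 and 39.3 CPM against 64.95, 72.5 and 68.9 in Over (log2FC -0.94, adjusted p = 1.71e-05). Genes of this family resemble each other closely, and the treatment of reads shared between them is not given in the sources used here, so the split of counts between them is uncertain. The 250 bases before the starts of these neighbors are shown because the genes were higher in KO-con together and their promoters are alike (RefSeq, GRCm38.p6, 5′ to 3′; chr13:4190937-4191186, plus strand and chr13:4279400-4279649, minus strand), with AGGAAGT (ETS) in capitals:
Akr1c13: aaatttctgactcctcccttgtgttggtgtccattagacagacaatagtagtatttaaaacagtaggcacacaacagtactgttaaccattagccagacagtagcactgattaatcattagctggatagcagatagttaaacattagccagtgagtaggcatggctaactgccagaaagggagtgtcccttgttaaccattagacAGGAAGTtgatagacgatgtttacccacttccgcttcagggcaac
Akr1c12: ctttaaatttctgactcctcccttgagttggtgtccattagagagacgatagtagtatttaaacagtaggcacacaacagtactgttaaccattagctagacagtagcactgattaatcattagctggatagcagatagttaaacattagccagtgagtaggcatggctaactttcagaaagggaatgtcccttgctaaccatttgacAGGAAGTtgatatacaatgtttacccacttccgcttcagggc
A global alignment gave 235 identical bases in 254 columns (92.5%). The ETS match begins 45 bases before the start of *Akr1c13* and 42 before that of *Akr1c12*.

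Other higher DEGs with the lowest adjusted p included *Cd200r1*, an inhibitory receptor of myeloid cells, at 423, 382 and 368 CPM in KO-con against 151, 152 and 139.7 in Over-con (log2FC 1.41, adjusted p = 7.76e-11). *Hhip*, which binds and restrains hedgehog ligands, was at 51.7, 52.8 and 47.4 CPM against 10.6, 13.6 and 13.4 (log2FC 2.04, adjusted p = 2.45e-10). The libraries of the lines did not overlap for either gene. *Prelid3a*, a member of a family of mitochondrial lipid transfer proteins, was at 25.9, 23.99 and 26.9 CPM against 2.87, 3.17 and 5.05 (log2FC 2.76, adjusted p = 9.09e-10). Its level in KO was far above the controls, at 204, 218 and 200.1 CPM, whereas Over stayed at 3.89, 5.05 and 4.28 CPM. *Hemk1*, a protein methyltransferase, *Creb5*, a bZIP transcription factor, and *Perp*, a p53-induced membrane protein, had log2FC values of 1.38, 1.12 and 1.48 (adjusted p = 5.12e-10, 1.68e-09 and 2.43e-09). *Lrrc32*, whose product holds latent TGF-beta at the cell surface, was at 13.9, 12.3 and 12.5 CPM in KO-con and 1.33, 1.94 and 2.23 CPM in Over-con. Its log2FC of 2.82 (adjusted p = 1.25e-08) was the second largest among higher DEGs with a mean of at least 10 CPM, after *Pim2*.

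Among genes lower in KO-con, *Ago4*, an Argonaute protein that binds small RNAs (NM_153177; chromosome 4 of mm9 from 126166785 to 126210716, minus strand), was at 76.1, 94.5 and 86.9 CPM in KO-con and 245, 240.1 and 244 CPM in Over-con. All KO-con libraries were lower, with a log2FC of -1.49 (standard error 0.08, adjusted p = 1.20e-10). *Ccn3*, a secreted matricellular protein (NM_010930; chromosome 15 of mm9 from 54577257 to 54585594, plus strand), was the most abundant lower DEG, at 243, 229.8 and 232 CPM against 769, 568 and 666 (log2FC -1.50, adjusted p = 2.45e-10). Its level was far lower again in KO, at 14.7, 15.005 and 16.97 CPM, against 335, 298 and 315 in Over. *Pde3b*, a phosphodiesterase that breaks down cyclic AMP, was at 103, 106 and 117 CPM in KO-con and 288, 308 and 247 CPM in Over-con (log2FC -1.36, adjusted p = 8.48e-10). *S100a10*, the partner of annexin A2, and *Itgb3*, the integrin beta 3 subunit, had log2FC values of -1.19 and -1.08 (adjusted p = 9.09e-10 and 2.65e-09). *Lcn2*, an iron-siderophore binding protein of granulocytes and epithelia, was at 86.3, 99.97 and 116 CPM against 287, 262 and 241 (log2FC -1.38, adjusted p = 2.43e-09). It was the only granulocyte marker that passed the filter. *Sspo*, which encodes the large secreted SCO-spondin, had a log2FC of -1.14 (adjusted p = 8.42e-09).

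The largest falls among DEGs with a mean of at least 10 CPM in the higher line were those of *Iqcg*, *Cnga1* and *Gzmb*. *Iqcg*, needed for the sperm flagellum, was at 1.24, 1.43 and 1.21 CPM in KO-con and 11.9, 11.8 and 10.4 CPM in Over-con (log2FC -3.10, adjusted p = 6.53e-09). *Cnga1*, a cyclic GMP-gated channel known from rod photoreceptors, was at 1.65, 1.25 and 1.58 against 9.43, 11.1 and 9.898 CPM (log2FC -2.75, adjusted p = 4.46e-08). *Gzmb*, the serine protease granzyme B of cytotoxic and mast cells, was at 1.55, 1.88 and 2.18 against 8.81, 11.8 and 11.2 CPM (log2FC -2.48, adjusted p = 1.75e-07). The groups did not overlap for any of these 3.

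**Figure D3:**
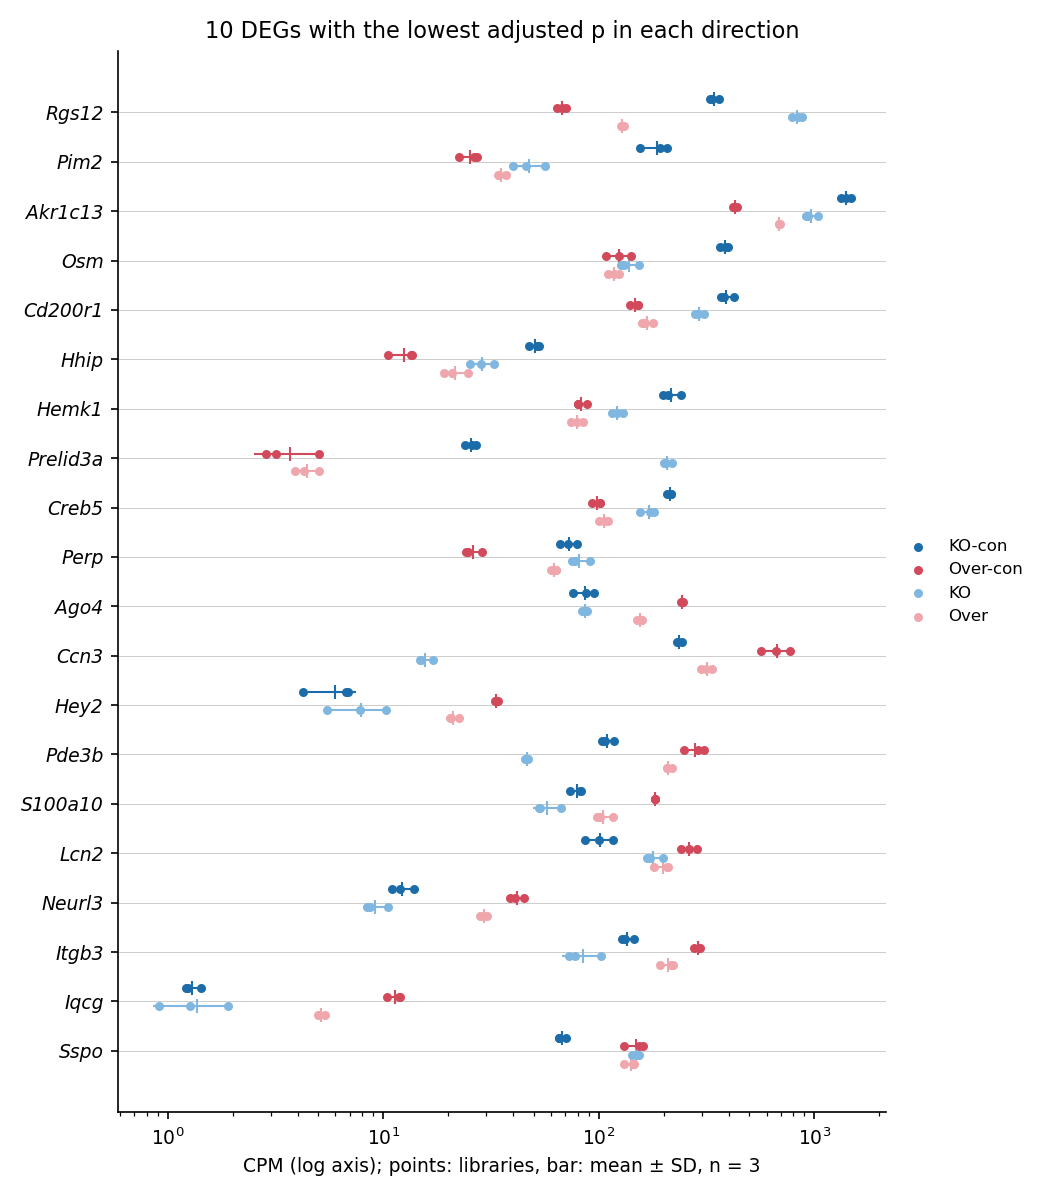
CPM on a log axis for the 10 higher (top) and 10 lower (bottom) DEGs with the lowest adjusted p, in each library of KO-con, Over-con, KO and Over, with points for libraries and bars for the mean ± SD (n = 3). KO-con and Over-con do not overlap for any of the 20, while KO lies beyond KO-con for *Rgs12*, *Prelid3a* and *Ccn3* and near Over-con for *Osm* and *Sspo*.

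Notch pathway genes moved in both directions. *Hey2*, a transcriptional repressor induced by Notch (NM_013904; chromosome 10 of mm9 from 30552165 to 30562607, minus strand), was at 6.72, 6.89 and 4.24 CPM in KO-con and 33.3, 33.1 and 34.1 CPM in Over-con (log2FC -2.46, adjusted p = 4.74e-10). *Neurl3*, a ubiquitin ligase of the neuralized family, was lower as well, at 11.9, 11.01 and 13.8 against 38.5, 40.8 and 45.1 CPM (log2FC -1.76, adjusted p = 2.43e-09). *Hes1*, another Notch-induced repressor, named after its values were seen, went the other way, at 4.55, 4.65 and 5.82 CPM in KO-con and 0.717, 0.704 and 0.9704 CPM in Over-con (log2FC 2.60, adjusted p = 6.11e-06). *Lfng*, the fringe glycosyltransferase that modifies Notch receptors, was at 73.8, 64.6 and 67.6 against 29.7, 28.5 and 39.1 CPM (log2FC 1.07, adjusted p = 6.71e-07). Of 14 transcripts tested in a Notch list, also drawn up after values were seen, 4 were higher and 4 lower at an adjusted p under 0.05. The receptor *Notch1* was among the lower, with a log2FC of -0.57 (adjusted p = 3.64e-05). Calls at an adjusted p under 0.05 came to 8.08% higher and 8.19% lower over all transcripts tested.

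Several of the weakly expressed DEGs encode immune receptors or cytokines. *Cd86*, a ligand that co-stimulates T cells, was at 8.58, 11.3 and 7.63 CPM in KO-con and 32.1, 37.7 and 25.2 CPM in Over-con (log2FC -1.75, adjusted p = 1.82e-07). *Il2rb*, the beta chain shared by the interleukin-2 and interleukin-15 receptors, and *Ltb*, the cytokine lymphotoxin beta, had log2FC values of -1.58 and -1.50 (adjusted p = 5.53e-06 and 7.31e-06). *Pilrb1*, an activating paired receptor, was at 0.103, 0.269 and 0.242 CPM against 2.66, 3.17 and 2.91, or 6 against 74 counts in sum, with KO-con at or under the floor in each library. *Cxcl10*, an interferon-induced chemokine, was higher in KO-con, at 16.4, 22.6 and 28.4 CPM against 7.17, 8.98 and 5.73 (log2FC 1.66, adjusted p = 3.43e-06). In a list of paired immune receptors and co-stimulatory molecules, drawn up after values were seen, 2 of 18 transcripts were DEGs higher in KO-con and 6 lower. Over all transcripts tested the shares were 0.837% and 1.32%. At an adjusted p under 0.05 alone, the shares over all transcripts tested were 8.08% higher and 8.19% lower. Of 28 chemokine and cytokine transcripts 4 were higher and 8 lower at that threshold. *Osm* and *Cxcl10* had the lowest adjusted p among the former, with *Il4* and *Lif* beside them, and *Ccl9*, *Ltb* and *Ccl2* among the latter.

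Genes of fibroblasts and feeder cells, where called, were lower in KO-con. None of the 32 transcripts tested was higher at an adjusted p under 0.05, and 13 were lower, with a median log2FC of -0.32 beside one of -0.00458 over all transcripts. At that threshold 8.08% of all transcripts tested were higher and 8.19% lower. *Col3a1*, a fibrillar collagen, was at 126, 113 and 129 CPM in KO-con and 222, 263 and 250.4 CPM in Over-con (log2FC -0.99, adjusted p = 3.58e-08). *S100a4*, *Fbn1*, *Col6a1*, *Col1a1* and *Col1a2* had log2FC values of -0.81, -0.64, -0.56, -0.47 and -0.37, with adjusted p of at most 0.00186. *Thy1* and *Dcn* were about level, at 37.1 and 40.1 CPM for *Thy1*. The summed level of the list was 4433 to 4496 CPM in KO-con and 5098 to 5350.3 in Over-con, and 5 of its 34 genes were at 0 in all control libraries. The part of the feeder cells in the differences between the control lines was not tested. In the engineered lines the list's sums overlapped, at 4472 to 4781 CPM in KO and 4521 to 4729 in Over.

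Mast cell proteases differed unevenly. *Cpa3*, mast cell carboxypeptidase A, was at 425, 363 and 415 CPM in KO-con and 806, 861 and 749.5 CPM in Over-con (log2FC -0.9997, adjusted p = 1.33e-08). *Ctsg*, cathepsin G, had a log2FC of -0.48 (adjusted p = 0.000244). Of 8 protease transcripts tested 4 were lower and 1 was higher, the last a transcript of *Ctsc*, whose other transcript was lower. The shares over all transcripts tested were 8.19% lower and 8.08% higher at an adjusted p under 0.05. The engineered lines had the opposite order for *Cpa3*, at 1158, 1138 and 1214 CPM in KO and 636, 649 and 662 CPM in Over. Among mast cell receptors and mediator genes, *Slc18a2*, the vesicular monoamine transporter, was lower (log2FC -0.73) and *Tph1*, which makes serotonin's precursor, higher (0.83), with adjusted p of 1.05e-05 and 0.000187.

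Genes of cell division, where called, were lower in KO-con except for 1. Of 30 S phase transcripts 10 were lower and 1 higher at an adjusted p under 0.05, with a median log2FC of -0.20. For this list and the next, the shares over all transcripts tested were 8.19% lower and 8.08% higher. *Rfc2*, a subunit of the clamp loader of DNA replication, and *Rrm2*, of ribonucleotide reductase, had log2FC values of -0.66 and -0.60 (adjusted p = 1.03e-05 and 0.00018). The higher one was *E2f2*, an activator of S phase entry, at 3.41, 5.55 and 3.39 CPM in KO-con and 1.23, 2.11 and 2.33 CPM in Over-con (log2FC 1.16, adjusted p = 0.0143). This call was lost without KO-con replicate 2 (adjusted p = 0.130, log2FC 0.87) and without Over-con replicate 1 (adjusted p = 0.104, log2FC 0.89). Of 30 G2/M transcripts 5 were lower and 0 higher, the proliferation marker *Mki67* among them at 118, 117 and 103 against 186, 173 and 139 CPM (log2FC -0.55, adjusted p = 0.000368).

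Metabolic lists split by pathway. Of 24 transcripts of glycolysis and the hypoxia response 10 were lower and 2 higher in KO-con at an adjusted p under 0.05. Beside each of the metabolic lists stand the shares over all transcripts tested, 8.19% lower and 8.08% higher. *Ndrg1*, *Bnip3* and *Pgk1* had log2FC values of -0.67, -0.50 and -0.35 (adjusted p = 1.13e-06, 0.000393 and 0.00455). Both higher ones belonged to *Pfkp*, a phosphofructokinase that commits sugar to glycolysis, with log2FC values of 1.02 and 1.26. *Eno2*, an enolase, was a DEG at low level (2.16 against 4.59 CPM, log2FC -1.05), a call lost without Over-con replicate 1 (adjusted p = 0.0683, log2FC -0.93) and, by fold change, without KO-con replicate 3 (-0.95). Targets of ATF4, the transcription factor of amino acid stress, were higher in 9 of 23 transcripts and lower in 1. *Nupr1*, a stress-induced chromatin protein, was at 208, 209 and 224 CPM in KO-con and 119, 109.7 and 114 CPM in Over-con (log2FC 0.90, adjusted p = 2.92e-08). *Slc7a11*, the cystine transporter, had a log2FC of 0.70 and *Slc38a2*, a neutral amino acid transporter, one of 1.05 (adjusted p = 4.31e-06 and 0.00596). Of 60 ribosomal protein transcripts 19 were higher and 0 lower, each by less than 1 on the log2 scale, with a median of 0.20. The summed level of the list overlapped between the lines, at 70009.5 to 74799 CPM in KO-con and 59486 to 70642 in Over-con, and ranged as widely within KO, from 59515 to 75212 CPM. *Rpl17* had the largest difference among the 19, at 0.61 (adjusted p = 1.84e-05). With library totals in place of TMM the median of all transcripts shifted to -0.06, and the median of the ribosomal list stayed above 0.

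Hematopoietic transcription factors were higher in 7 of 18 transcripts and lower in 0. *Lyl1*, a basic helix-loop-helix factor of blood stem cells, was at 172, 150.2 and 159.9 CPM in KO-con and 69.6, 69.2 and 95.5 CPM in Over-con (log2FC 1.04, adjusted p = 4.60e-07). *Bhlhe40*, *Id2* and *Zfpm1* had log2FC values of 0.64, 0.66 and 0.87, with adjusted p of at most 1.29e-05. The list's median of 0.20 moved with single libraries, to -0.00848 without Over-con replicate 2 and to 0.49 without Over-con replicate 3. Imprinted genes gave no call among 17 transcripts. DNA methylation genes gave 1 higher and 1 lower of 10, near the shares of all transcripts tested (8.08% higher, 8.19% lower), so these calls say nothing particular about the list. The lower was *Uhrf2* (log2FC -0.34, adjusted p = 0.0106) and the higher *Tet3* (0.56, adjusted p = 0.0358). *Xist* had 20 counts in KO-con and 10 in Over-con over all libraries, near the floor, and 9 Y-linked genes had none.

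**Figure D4:**
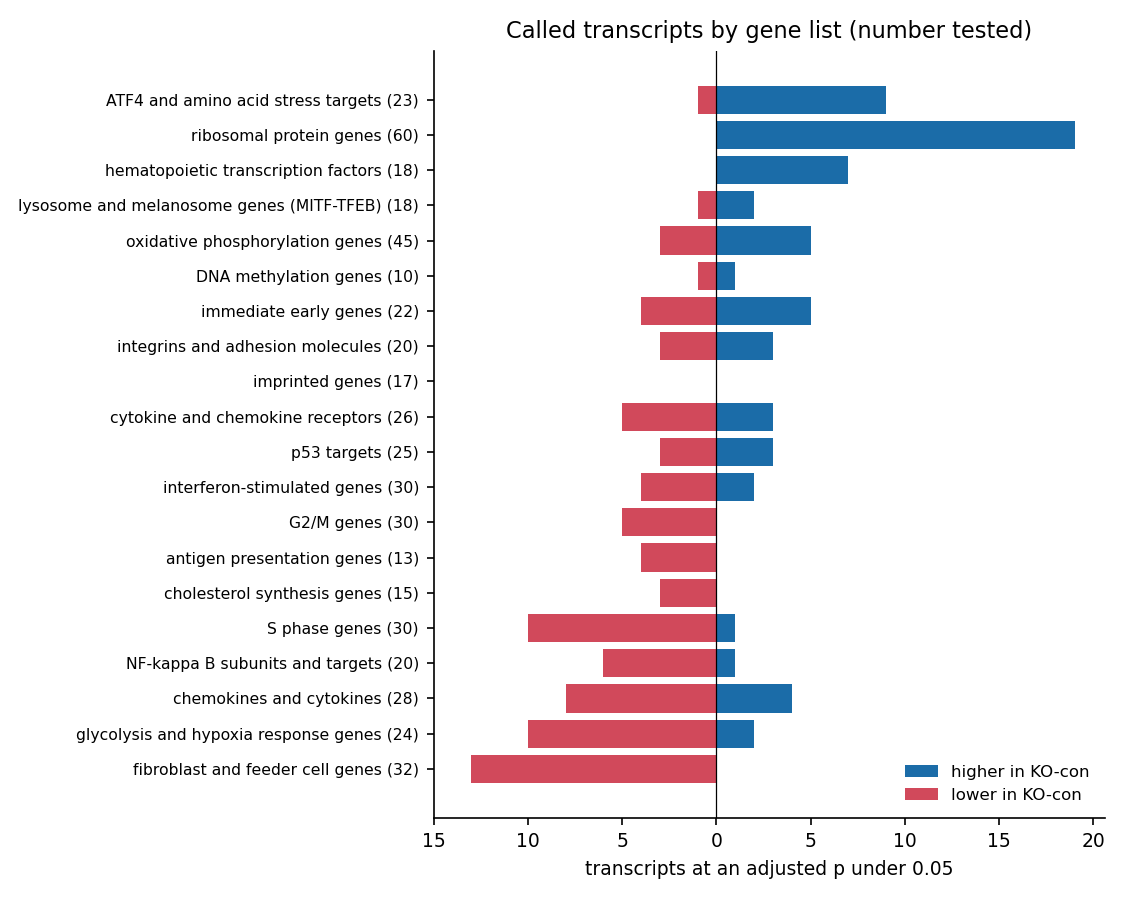
Number of transcripts with an adjusted p under 0.05 that were higher (right) or lower (left) in KO-con, for the lists with at least 10 transcripts tested (number in parentheses), ordered by the list's median log2FC. Fibroblast and feeder genes (13 lower, 0 higher) and ribosomal protein genes (19 higher, 0 lower) lie toward the ends, and imprinted genes have none. Over all transcripts tested 8.08% were higher and 8.19% lower.

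Of the germ cell genes that the study names, *Prdm1*, a repressor that sets up the germline, was the only DEG. It was at 1.97, 1.88 and 1.696 CPM in KO-con and 0.717, 0.528 and 0.776 CPM in Over-con, from 54 and 18 counts (log2FC 1.40, adjusted p = 0.0175). The call was lost when KO-con replicate 1 or 2 or Over-con replicate 1 or 2 was left out, with adjusted p between 0.0619 and 0.0784 and log2FC values between 1.30 and 1.42. *Ifitm3* (Fragilis) was slightly lower, at 121 ± 13.5 against 155 ± 8.04 CPM (log2FC -0.36, adjusted p = 0.0059), a call lost without KO-con replicate 1 (adjusted p = 0.0702, log2FC -0.30). *Sycp3*, of the synaptonemal complex, was at 1.61 ± 0.219 against 1.84 ± 0.0949 CPM (log2FC -0.17, adjusted p = 0.786). *Stra8* had no counts, *Bcl6b* 1 count in each line, and the measured transcript of *Etv5* 14 and 17 counts. Among 4 self-renewal genes tested, *Foxo1* was higher (log2FC 0.54, adjusted p = 0.000395). Of the 8 genes that the study chose for RT-qPCR, 3 were higher and 2 lower between its own control lines at an adjusted p under 0.05. They were *Hhip* as above, *St8sia4* (0.69, adjusted p = 8.72e-05), *Tox* (0.76, adjusted p = 0.000649), *Sema7a* (-1.22, adjusted p = 1.45e-05) and *Card9* (-0.52, adjusted p = 0.00078). Since that list was chosen on these samples, its count is no independent evidence of a direction. At that threshold 8.08% of all transcripts tested were higher and 8.19% lower. *Meikin*, *Itih5* and *Prdm9* did not pass, with log2FC values of -0.26, 0.31 and -0.07 (adjusted p = 0.0647, 0.0967 and 0.755).

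Whether the difference between the control lines recurred was read from KO against Over, since the engineered lines are other libraries. KO and Over also differ in *Stella* itself, and KO was 1 clone. A call in the same direction can therefore not be told apart from an effect of *Stella* or of the clone. Recurrence here means the same direction alone. Between them 1026 of 9553 transcripts (10.7%) had an adjusted p under 0.05 in edgeR's test, 4.97% higher and 5.77% lower in KO. Of the 192 control-line DEGs tested there, 94 (49%) were called in the same direction and 8 in the opposite one. Recurrence was more frequent among genes lower in KO-con, 68 of 118 (57.6%), than among those higher, 26 of 74 (35.1%), a difference that was not tested. Of the 9174 transcripts tested in both comparisons, with or without a call between the controls, 700 were called in KO against Over in the direction of their control difference and 299 in the other. Across the 192 DEGs 145 (75.5%) had the same sign, beside 5085 (55.4%) of the 9174 transcripts. The Pearson correlation of the log2FC values was 0.33 across 9174 transcripts and 0.59 across the DEGs, as a description across genes, which are not independent replicates.

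The genes that recurred included several of the leading ones. *Rgs12* had a log2FC of 2.70 in KO minus Over (adjusted p = 1.21e-11), and *Prelid3a* one of 5.54 (adjusted p = 1.31e-12). *Ccn3* had -4.34, *Pde3b* -2.19, *Itgb3* -1.32, *Neurl3* -1.68, *Cd86* -1.59 and *Ltb* -3.01, with adjusted p of at most 1.31e-05. *Cd86* was at 12.4, 9.45 and 8.17 CPM in KO and 27.6, 30.1 and 31.8 CPM in Over, close to its levels in KO-con and Over-con. *Cnga1* was at 0.576, 0.607 and 0.635 CPM in KO and 8.33, 7.73 and 7.27 CPM in Over, and *Gzmb* at 0.2304, 0 and 0.181 against 8.61, 8.499 and 6.201 CPM. In these genes KO-con and KO were both low and Over-con and Over both high.

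**Figure D5:**
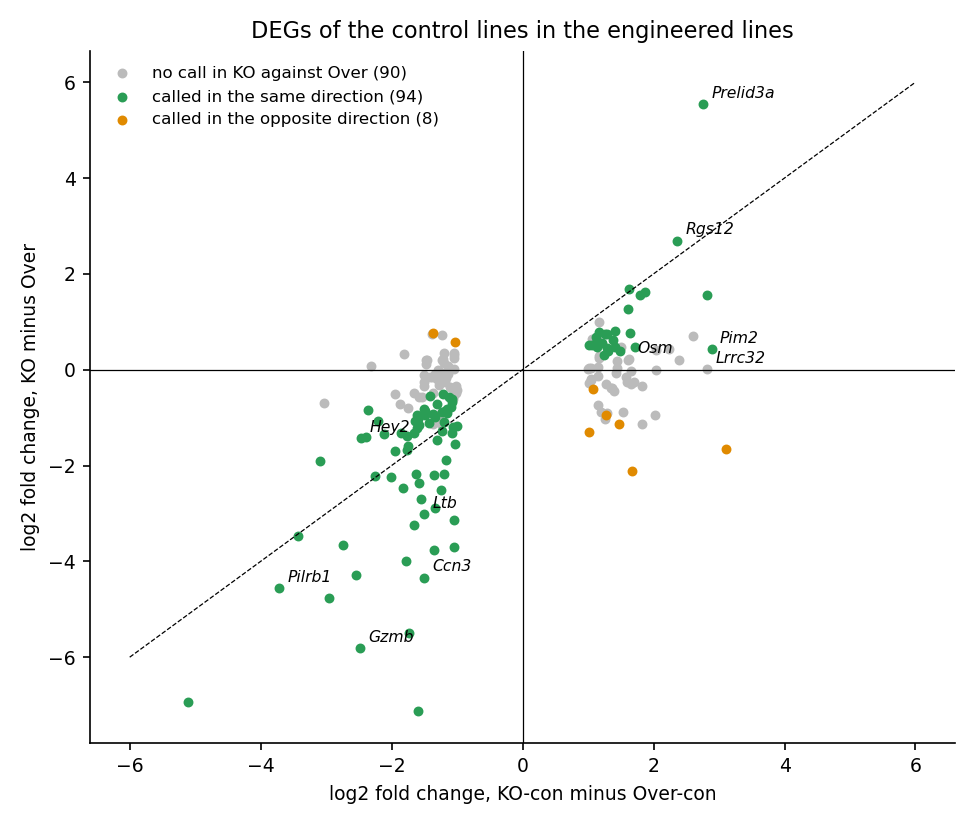
Log2FC of KO minus Over (vertical axis) against that of KO-con minus Over-con (horizontal axis) for the 192 control-line DEGs tested in both, with the identity line dashed and colors by the call in KO against Over. The 94 genes called in the same direction, *Rgs12*, *Prelid3a* and *Ccn3* among them, lie in the lower left and upper right, *Osm*, which was not called, lies near 0 on the vertical axis, and fitted values of genes at or near 0 counts in KO, such as *Gzmb*, depend on the prior count.

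Other DEGs were not called in KO against Over. *Osm* had a log2FC of 0.22 in KO minus Over (adjusted p = 0.104), *Lrrc32* 0.01 (adjusted p = 0.992), *Lcn2* -0.15 (adjusted p = 0.266), *Sspo* 0.08 (adjusted p = 0.471), *Cxcl10* -0.30 (adjusted p = 0.344) and *Lyl1* 0.03 (adjusted p = 0.897). *Lrrc32* was at 3.23, 3.56 and 2.63 CPM in KO and 3.33, 3.22 and 2.78 CPM in Over, all above Over-con and below KO-con. The 8 DEGs called in the opposite direction were *Akr1c12*, *Rhag*, *Jaml*, *Lfng*, *Shisa3*, *Drc1*, *Tcam1* and *Cd300ld*, and apart from *Lfng* they were named after their values were seen. *Rhag*, an ammonium channel of red blood cells, was at 8.48, 6.53 and 7.39 CPM in KO-con and 0.717, 1.23 and 0.776 CPM in Over-con, but at 0.576, 0.434 and 0.817 CPM in KO and 2.22, 1.45 and 2.25 CPM in Over. *Jaml*, a junctional adhesion molecule of leukocytes, was at 25.3, 23.4 and 25.1 and 7.07, 9.51 and 10.2 CPM in the controls, and at 6.57, 5.38 and 7.71 CPM in KO and 14.8, 12.5 and 16.1 CPM in Over. *Tcam1*, a testicular cell adhesion gene lower in KO-con, was at 44.99, 54.1 and 49.2 and 122, 94.7 and 88.2 CPM, and at 149, 152 and 168 CPM in KO and 111, 102 and 101 CPM in Over.

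The difference of the line differences, (KO minus Over) minus (KO-con minus Over-con), was tested with all 12 libraries in 1 fit. It had an adjusted p under 0.05 for 856 of 9903 transcripts (8.64%) and for 98 of the 201 DEGs. The DEGs were chosen by the control values that enter this test, which raises their share, so these shares cannot be compared. All 8 DEGs of opposite direction were among the 98. A further 57 DEGs were called the same way in the engineered lines with no call for the difference, *Neurl3* (0.09 on the log2 scale, adjusted p = 0.807), *Cd86* (0.17, adjusted p = 0.749) and *Itgb3* (-0.23, adjusted p = 0.353) among them. A p that misses the threshold does not show that the differences were equal. Over all transcripts, the count of 856 moved with single libraries. It was 564 without KO-con replicate 1, 556 without Over-con replicate 1, 541 without Over replicate 1 and 536 without Over replicate 2.

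The DEGs were spread over the genome. Chromosome medians of the log2FC lay between -0.05 and 0.03, with 4 to 16 DEGs on each of the 19 autosomes and chromosome X, and KO minus Over gave medians between -0.04 and 0.07. No chromosome was shifted as a whole by more than this. Of 185 DEG genes with an mm9 position, neighbors within 100000 bases formed 6 pairs, and both members changed in the same direction in all 6. *Itln1*, *Cd244a* and *Cd48*, which lie together on chromosome 1, were all lower in KO-con, with log2FC values of -3.44, -1.95 and -1.59. *Cd244a* encodes a receptor of natural killer and mast cells whose ligand is the product of *Cd48*. The other pairs were *Flcn* and *Gm16062*, *Akr1c13* and *Akr1c12*, *Krba1* and *Sspo*, and *Cish* and *Hemk1*. *Gm16062* lies 64 bases from *Flcn*, and reads from close neighbors may not be told apart, since the strand setting of the counting is not given in the sources used here.

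Promoter letters were counted from 250 bases before to 50 after the starts that RefSeq lists, in both strands, for 67 promoters of 53 higher DEG genes, 98 of 86 lower ones and 8060 of 7016 genes tested. AGGAAGT (ETS) was found in 13.4% of promoters of higher DEGs, 16.3% of lower ones, 8.82% of genes tested and 9.35% of all promoters in the table. TGAGTCA (AP-1) was in 10.4%, 5.1%, 3.96% and 5.2%, in the same order. CACGTG (E-box) was in 14.9%, 7.14%, 10.2% and 7.15%, CATGTG (M-box) in 10.4%, 18.4%, 9.44% and 14.2%, and the motif of GATA factors, AGATAA, in 7.46%, 12.2%, 6.03% and 11.2%. TGACGT (CRE) was in 4.48%, 11.2%, 11.9% and 7.51%, and the motif of the TATA box, TATAAA, in 11.9%, 9.18%, 7.02% and 13.6%. TTCNNNGAA, the letters that STAT factors bind, added after values were seen, was in 5.97%, 6.12%, 6.92% and 8.3%. These shares rest on 3 to 18 promoters per motif among the DEGs and were not tested.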

How the data were processed

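The authors deposited 1 table of raw read counts per RefSeq transcript for 12 libraries. Total RNA was extracted with Trizol, libraries were made with a stranded mRNA kit, and trimmed reads were aligned to mm9 with HISAT2 at default settings, per the labels and the study's methods. The strand setting, the annotation release and the handling of reads shared between transcripts are not given in the sources used here.

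Groups were taken from the labels. Low counts were filtered with edgeR's filterByExpr, normalization was TMM, and each comparison was a quasi-likelihood test (glmQLFit, glmQLFTest) with Benjamini-Hochberg adjustment, fitted on the 6 libraries compared, or on all 12 for the difference of differences. Log2FC values carry the default prior count of edgeR's fit. A prior count of 2 was used for log2 CPM. CPM, counts scaled to library size, are TMM-normalized over 12 libraries. Every table column was used. A gene that the rule names is not reported here. The test was checked on simulated data.

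Genes were named by rule: in each direction, the 10 DEGs of lowest adjusted p among those with no overlap between libraries, the 3 DEGs of lowest adjusted p in each gene list, and genes that the paper names. The lines and lists were chosen with earlier results of these data known. The STAT5, Notch, paired receptor and G protein lists, and every gene named that the rule does not give, were chosen after their values were seen. In the G protein list, 2 of 11 transcripts were higher and 4 lower. Counts at an adjusted p under 0.05 in lists not described above were as follows, beside 8.08% higher and 8.19% lower over all transcripts tested. Of 25 p53 targets 3 were higher and 3 lower, and 0 of 15 cholesterol synthesis transcripts were higher and 3 lower. Interferon-stimulated genes had 2 higher and 4 lower of 30, antigen presentation 0 and 4 of 13, NF-kappa B genes 1 and 6 of 20, immediate early genes 5 and 4 of 22, cytokine receptors 3 and 5 of 26, integrins 3 and 3 of 20, oxidative phosphorylation 5 and 3 of 45, lysosome genes 2 and 1 of 18 and growth factor receptors 1 and 3 of 9.

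Alternatives were DESeq2, limma-voom, glmTreat, other size factors and filters, counts summed per gene, all 12 libraries in 1 fit, a replicate block and leaving out each library. Genes with 1 listed transcript, a fold threshold in KO against Over, and DESeq2, a stricter filter and left-out libraries for the difference of differences were added after seeing the data. Software was R 4.3.3, edgeR 4.0.16, limma 3.58.1, DESeq2 1.42.0, Python 3.11.15, pandas 2.3.3, numpy 2.4.6 and matplotlib 3.10.9.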

Additional observations from a re-analysis of the deposited data

Results flagged for a closer look

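For 29 of the 41 DEGs named by rule, the difference between the lines was itself different in the engineered lines (adjusted p under 0.05). The value tested was (KO minus Over) minus (KO-con minus Over-con), in edgeR's quasi-likelihood fit of all 12 libraries. Over all transcripts the share was 8.64%. These DEGs were chosen by the control values that enter the test, and such a choice alone favors a smaller difference in other libraries. Their count is therefore a description. A negative value means a smaller excess, or a larger deficit, on the knockout side once the lines were engineered. It does not tell whether KO or Over moved away from its control.

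Among DEGs higher in KO-con, the excess of KO over Over was smaller, or of the opposite sign, for *Lrrc32* (-2.80 on the log2 scale), *Pim2* (-2.45), *Prdm1* (-2.44), *Cxcl10* (-1.95), *Hhip* (-1.61), *Lfng* (-1.48), *Osm* (-1.40), *Slc38a2* (-1.26), *Akr1c13* (-1.23), *Perp* (-1.09), *Lyl1* (-0.999), *Pim1* (-0.92), *Hemk1* (-0.75), *Cd200r1* (-0.60), 1 transcript of *Pfkp* (-0.50) and *Creb5* (-0.43). It was larger for *Prelid3a* (2.80) and *Rgs12* (0.35, adjusted p = 0.024).

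Among DEGs lower in KO-con, the deficit of KO against Over was smaller, or of the opposite sign, for *Sema7a* (1.46), *Sspo* (1.24), *Lcn2* (1.23), *Iqcg* (1.21), *Hey2* (1.04), *Il2rb* (1.01) and *Ago4* (0.64). It was larger for *Gzmb* (-3.31), *Ccn3* (-2.83), *Ltb* (-1.50) and *Pde3b* (-0.82). *Prdm1* rested on 54 counts in KO-con and 18 in Over-con, and 1 KO library held 0 counts of *Gzmb*, so the sizes given for these are imprecise.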

How the results depend on the processing

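The 201 DEGs became 136 in DESeq2 (55 higher, 81 lower), 208 in limma-voom and 136 with at least 10 counts in every library (50 higher). Without the fold threshold there were 1516 (753 higher, 763 lower), and with edgeR's glmTreat against 2-fold 48 (20 higher, 28 lower). Leaving out 1 library gave 171 to 263 DEGs, 60 to 124 higher (124 without Over-con replicate 3) and 101 to 139 lower. Recurrence in KO against Over ranged from 77 to 103 of the DEGs and was 57 with the fold threshold there too. The difference of differences ranged from 536 to 1126 transcripts over left-out libraries. The replicate block gave 205 DEGs, 197 of them shared, and 89 recurrent ones. Same-numbered libraries showed no pairing (correlations of deviations of -0.0129, 0.0417 and 0.0143).

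No named gene with an adjusted p under 0.05 in the main fit or in the alternative reversed in direction. Changes of sign without such a call were not counted. By adjusted p alone, 805 of the alternative values of named genes stayed on their side of 0.05, 8 lost it, all when 1 library was left out, and 2 gained it, both of *Meikin* (adjusted p = 0.0337 with library totals and 0.0195 without Over-con replicate 3). With the fold threshold as well, 21 of 681 values of the 41 named DEGs lost the call, 14 of them by fold change alone, in 7 transcripts. Library totals accounted for 3 of these and left-out libraries for 18. *Pilrb1*, *Prdm1* and *Sycp3* had no adjusted p in DESeq2. Library totals moved the share of higher DEGs from 38.8% to 34.3%, and leaving out Over-con replicate 3 moved it to 47.1%. Of 374 list medians 25 moved beyond their spread, and 19 changed sign. Over-con replicate 2, the shallowest library, and the many DEGs under 10 CPM limit the precision. The cause of these shifts was not tested.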
